A study of Mus musculus with 15 samples.

Results

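The interferon regulatory factors are the transcription factors encoded by the Irf genes. The 8 followed here, Irf1, Irf2, Irf3, Irf4, Irf5, Irf7, Irf8 and Irf9, were found among the 27179 genes of the count table by their Entrez gene IDs. The series is about how TGF-β and c-Maf set the choice between Tfh and Th17 cells. The 8 genes were measured in 15 RNA-sequencing libraries of mouse CD4 T cells, 5 each of the conditions Th1, Th17 and Tfh (T follicular helper). Naive cells had received plate-bound antibodies to CD3 and CD28 in differentiating conditions, were cultured for 3.5 days and sorted by flow cytometry, and their messenger RNA was sequenced. All 3 conditions carried the genotype B6.Cg-Ifngtm3.1Lky-Il17atm1.1Lky, in which the Ifng and Il17a alleles are altered, by their allele names as cytokine reporters. The design text describes the Th1 cells as sorted for interferon gamma, and the Tfh cells for CXCR5 without IL-17A. It names no gate for Th17 cells, and neither that gate nor the cytokines of the cultures were known from the sources used here. The labels do not say that the 5 libraries of a condition are of different animals or cultures, so every p-value reflects only the variation among these samples, part or all of which may be technical.

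Interferon regulatory factors share a DNA-binding domain that reads repeats of the letters GAAA, as in the interferon-stimulated response element, and differ in what switches them on and in their partners. IRF3, IRF5 and IRF7 are activated by phosphorylation after pathogen sensing, IRF9 joins STAT2 in the ISGF3 complex downstream of type I interferon, IRF1 is induced by interferon gamma, and IRF2 competes for IRF1 sites. IRF4 and IRF8 bind DNA poorly alone and join BATF with JUN proteins or PU.1, and IRF4, induced by T cell receptor signals, is needed for Th17 and Tfh differentiation.

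Total counts ran from 4.87 M to 25.2 M per library, with a median of 10.5 M. T cell markers were high throughout, with a summed level of 3657 to 4655 CPM (counts scaled to a library total of 1 M, with totals adjusted by TMM factors) in Th1, 5435 to 6161 in Th17 and 6411 to 7830.3 in Tfh. The Th1 markers Tbx21, Ifng, Cxcr3 and Il12rb2 summed to 2444 to 2884 CPM in Th1 and to at most 81.0 CPM elsewhere. The Th17 cytokine gene Il17f was at 11252 ± 727 CPM (SD, n = 5) in Th17 and 4434 ± 755 CPM in Tfh. Cxcr5 was at 169 ± 14.2 CPM in Tfh against 39.0 ± 4.75 in Th17. Tfh replicate 1, the shallowest library, stood apart on the second principal component, at 94 against -1 to 12.1 for the other Tfh libraries. Libraries also differed in how their deviations followed the GC content of genes. The rank correlation across genes, which are not independent replicates, ran from -0.65 in Th1 replicate 1 to 0.70 in Th1 replicate 4 and Th17 replicate 4.

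All 8 genes passed the filter on low counts, on summed counts of 1308 (Irf7) to 351149 (Irf4) over the 15 libraries. Irf8, Irf1 and Irf5 were lower in Th17 and in Tfh than in Th1. Irf4 was higher in both than in Th1, and Irf2 was higher in Tfh than in either other condition. In Th17 against Th1, 6 of 8 members passed edgeR's quasi-likelihood test at an adjusted p under 0.05, 1 higher and 5 lower, where 36.9% of the 12591 genes tested passed in either direction, 19.0% higher and 17.8% lower. In Tfh against Th1, 5 of 8 passed, 2 higher and 3 lower, where 49.3% of all genes passed, 24.1% higher and 25.2% lower. In Tfh against Th17, 4 of 8 passed, 3 higher and 1 lower, against 16.8% of all genes, 6.80% higher and 9.98% lower. With the GC content of genes modelled, as described for Irf3 below, 5 of 8 passed in that comparison, against 26.9% of all genes (31.4% with the replicate number as a block). In each comparison the members that passed were also those whose libraries did not overlap between the conditions, 6, 5 and 4 members, where 28.8%, 34.3% and 14.5% of all genes did not overlap. The median absolute log2 fold change of the members was 1.01, 0.76 and 0.44 in the same order, beside 0.45, 0.60 and 0.33 over all genes. Any pair of these comparisons shares a condition's libraries. Without Tfh replicate 1, every one of these calls was also made.

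**Figure D1:**
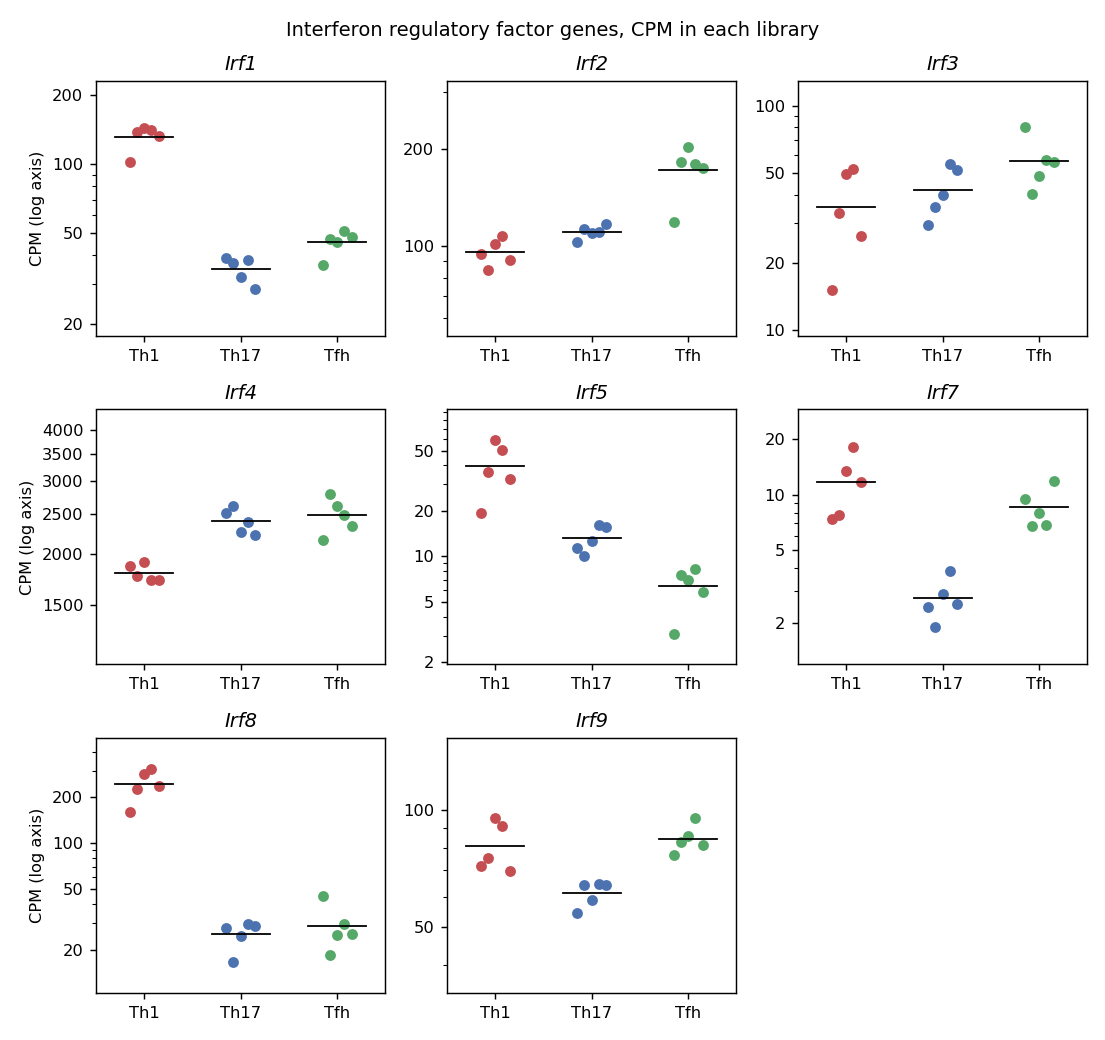
Level of each interferon regulatory factor gene in each library, in CPM on log axes that differ between panels. Points are libraries, 5 per condition, and bars are condition means. Irf8 lies between 161 and 307 CPM in Th1 and between 16.7 and 45.4 CPM in the other libraries, while Irf4 lies at 1724 CPM or above in all 15.

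**Figure D2:**
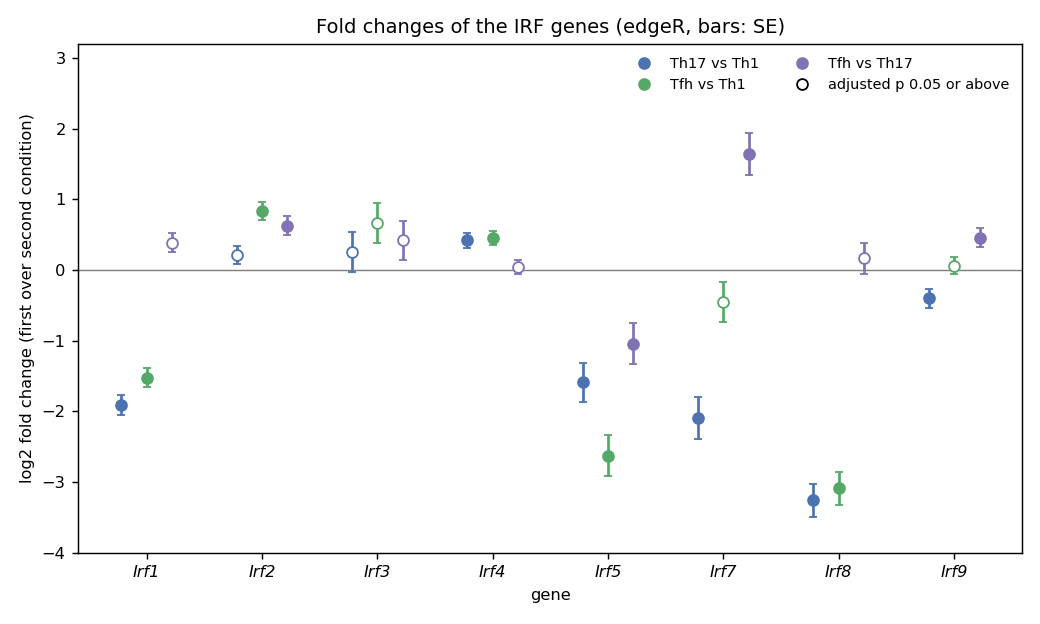
Log2 fold changes of the 8 genes in the 3 comparisons, from edgeR, with standard errors as bars. Filled points passed at an adjusted p under 0.05. Irf1, Irf5 and Irf8 are filled below 0 in both comparisons with Th1, and Irf4 is filled above 0 in both.

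The promoters of 3 members are shown because their windows held a letter match to a response element of the pathways that switch the family on. RefSeq (GRCm38.p6) gave windows of 250 bases before to 50 after a start for all 8 genes, 11 windows in all. Both strands were searched for the interferon-stimulated response element (ISRE, GAAA and GAAA with any 2 bases between), the interferon gamma-activated element known as GAS (TTCNNNGAA), an NF-kB site (GGGA and TTTCC with any 1 base between) and an AP-1 site (TGANTCA). The matches found in members did not overlap each other. A match stood in 3.44%, 8.3%, 0.411% and 7.81% of all 32851 windows of this length, in that order. Irf1 held 1 GAS match 90 bases before its start. Irf2 held an ISRE match 241 bases and a GAS match 224 bases before its start. Irf8 held 2 GAS matches, 171 and 153 bases before its start. None of the 4 motifs matched in the windows of Irf3, Irf4, Irf5, Irf7 and Irf9, or in the second windows of Irf1 and Irf8, which says only that these letters are not in these windows. The 250 bases before the start follow, 5′ to 3′ on the plus strand, with the matches in capitals. Those of Irf1 lie at chr11:53769764-53770013, those of Irf2 at chr8:46739495-46739744 and those of Irf8 at chr8:120736108-120736357.
Irf1: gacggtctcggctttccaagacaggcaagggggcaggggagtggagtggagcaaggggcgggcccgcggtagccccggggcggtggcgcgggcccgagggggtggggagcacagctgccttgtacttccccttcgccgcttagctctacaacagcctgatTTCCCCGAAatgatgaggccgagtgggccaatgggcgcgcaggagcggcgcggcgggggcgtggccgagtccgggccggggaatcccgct
Irf2: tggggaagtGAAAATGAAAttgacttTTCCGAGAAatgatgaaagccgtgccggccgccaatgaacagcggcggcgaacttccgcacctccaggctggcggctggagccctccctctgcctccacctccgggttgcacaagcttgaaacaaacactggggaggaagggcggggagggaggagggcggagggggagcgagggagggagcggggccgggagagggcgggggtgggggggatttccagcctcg
Irf8: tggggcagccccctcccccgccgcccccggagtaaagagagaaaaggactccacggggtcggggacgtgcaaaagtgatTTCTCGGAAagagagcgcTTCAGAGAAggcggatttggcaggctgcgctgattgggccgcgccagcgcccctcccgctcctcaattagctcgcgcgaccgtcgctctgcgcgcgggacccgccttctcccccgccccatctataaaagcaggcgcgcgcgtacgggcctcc

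Irf4 was the most abundant member everywhere. It encodes the factor that T cell receptor signals induce and that works with BATF and JUN proteins in T cells (chr13:30749233-30766981, GRCm38). Irf4 stood at 1869, 1766, 1915, 1724 and 1725 CPM in Th1 replicates 1 to 5. In Th17 it stood at 2518, 2619, 2259.8, 2385 and 2225 CPM, and in Tfh at 2156, 2801, 2618, 2491 and 2337 CPM. Each Th17 and Tfh library was above each Th1 library, while Th17 and Tfh overlapped. The mean was 1800 ± 87.7 CPM in Th1, against 2401 ± 168 in Th17 and 2481 ± 249 in Tfh. Irf4 was higher in Th17 than in Th1 by a log2 fold change of 0.42 ± 0.10 (SE, edgeR adjusted p = 0.00315). It was higher in Tfh than in Th1 by 0.46 ± 0.10 on the log2 scale (edgeR adjusted p = 0.000925). Between Tfh and Th17 the log2 difference of Irf4 was 0.05 ± 0.10 (edgeR adjusted p = 0.81). In size, the changes of Irf4 against Th1 exceeded those of 47% of all genes tested in Th17 and of 40.6% in Tfh. Bulk libraries cannot tell fewer cells of a type from less RNA per cell, here or for the other members.

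Irf8, the closest relative of Irf4 and a factor best known from dendritic cells, other myeloid cells and B cells (chr8:120736358-120756694), went the other way and had the largest fold change of the 8 genes against Th1. Irf8 stood at 161, 227, 284, 307 and 237 CPM in the 5 Th1 libraries. The Th17 libraries gave 27.9, 16.7, 24.6, 29.5 and 28.6 CPM, and the Tfh libraries 45.4, 18.6, 25.2, 29.5 and 25.3 CPM. Every Th1 library was thus above every other library, and the ranges of Th17 and Tfh overlapped. Irf8 was 9.56-fold lower in Th17 than in Th1 (log2 fold change -3.26 ± 0.24, edgeR adjusted p = 3.01e-09). In Tfh it was 8.50-fold lower than in Th1 (log2 fold change -3.09 ± 0.24, edgeR adjusted p = 3.75e-09). Tfh replicate 1 was the highest library outside Th1. Between Tfh and Th17 the log2 difference of Irf8 was 0.17 ± 0.22 (edgeR adjusted p = 0.671), and -0.04 ± 0.20 without Tfh replicate 1 (adjusted p = 0.921, 0.397 to 0.921 over all alternatives).

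The summed levels of markers of cells known for Irf8 were also higher in Th1, through a few genes of each list. The 8 B cell markers summed to 15.9 to 27.8 CPM in Th1, 1.76 to 3.82 in Th17 and 0 to 4.28 in Tfh. In Th1 most of that sum was Ebf1, at 17.4 ± 4.53 CPM, while the defining B cell genes Ms4a1 and Pax5 had 5 and 0 counts over the 5 Th1 libraries. The 12 myeloid and dendritic cell markers summed to 13.5 to 28.0 CPM in Th1, 4.25 to 9.83 in Th17 and 5.41 to 8.50 in Tfh. Cd68, at 10.7 ± 4.91 CPM, and Zbtb46, at 8.83 ± 1.68 CPM, made up most of the Th1 sum. Spi1 (the gene of PU.1), Itgax, Lyz2, Clec9a and Siglech had no count in Th1, and Csf1r had 1. Other markers had their higher levels outside Th1. Xcr1, a dendritic cell receptor gene, was at 0.205 ± 0.364 CPM in Th1, against 1.92 ± 1.14 in Th17 and 3.52 ± 1.59 in Tfh. The B cell kinase gene Blk had no count in Th1, 39 in Th17 and 51 in Tfh, and Cd79a was at 0.264, 0.356 and 1.17 CPM. The part of such cells in the Irf8 and Irf5 results was not tested beyond these values.

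Set against each other within a library, the counts of Irf4 and Irf8 differed by an order of size between the conditions. The ratio of Irf4 to Irf8 counts was 5.62 to 11.6 in the Th1 libraries, with a mean of 7.80 ± 2.26. It was 77.9 to 157 in Th17, with a mean of 99.6 ± 32.5, and 47.5 to 150.2 in Tfh, with a mean of 95.7 ± 37.1. No Th1 library reached the lowest ratio of the other conditions, and Th17 and Tfh overlapped. These ratios are of counts and not corrected for gene length.

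Irf1, which encodes an activator induced by interferon gamma (chr11:53770014-53778374, downstream of the GAS match above), was also lower outside Th1. Irf1 stood at 102, 138, 144, 141 and 133 CPM in the Th1 libraries. In Th17 it stood at 39.0, 37.2, 32.3, 38.3 and 28.5 CPM, and in Tfh at 36.3, 47.3, 45.6, 51.0 and 48.3 CPM. All Th1 libraries lay above the rest, and the Tfh libraries lay above those of Th17 except for replicate 1. Irf1 was 3.76-fold lower in Th17 than in Th1 (log2 fold change -1.91 ± 0.14, edgeR adjusted p = 4.35e-09). In Tfh it was 2.87-fold lower than in Th1 (log2 fold change -1.52 ± 0.14, edgeR adjusted p = 5.28e-08). For Tfh against Th17 the log2 difference of Irf1 was 0.39 ± 0.14 and missed the threshold (edgeR adjusted p = 0.0683). It passed in 9 of 25 alternatives, among them DESeq2 (adjusted p = 0.0162), the fit without Tfh replicate 1 (0.46 ± 0.14, adjusted p = 0.0295), the one without Th1 replicate 1 (adjusted p = 0.0438) and the GC correction (0.0158), with a range of 0.0102 to 0.149 over all 25.

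Irf2, which encodes the factor that competes with IRF1 for its sites (chr8:46739745-46847458), was highest in Tfh. Irf2 stood at 94.6, 84.5, 102, 108 and 90.5 CPM in Th1 and at 103, 113, 110.0, 111 and 117 CPM in Th17. The Tfh libraries gave 119, 182, 203, 179.7 and 175 CPM. Every Tfh library was above every other library, with replicate 1 close to the highest Th17 library, and Th1 and Th17 overlapped. Irf2 was higher in Tfh than in Th17 by 0.63 ± 0.13 on the log2 scale (edgeR adjusted p = 0.00269). Against Th1 it was higher in Tfh by 0.84 ± 0.13 (edgeR adjusted p = 3.79e-05). Without Tfh replicate 1 these log2 fold changes were 0.74 and 0.95. In Th17 against Th1 the difference was 0.21 ± 0.13 (edgeR adjusted p = 0.237). RefSeq places 2 long noncoding genes, which were not in the count table, over 4262 and 3697 bases of Irf2, and reads of overlapping genes cannot be told apart without a strand setting.

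The counts of the activator's gene and its competitor's gene stood in a different ratio in Th1 than in the rest. The ratio of Irf1 to Irf2 counts was 1.08 to 1.63 in Th1, with a mean of 1.38 ± 0.205. It was 0.244 to 0.378 in Th17 (mean 0.317 ± 0.0510) and 0.225 to 0.307 in Tfh (mean 0.270 ± 0.0304). Irf1 counts thus exceeded Irf2 counts in all 5 Th1 libraries and in none of the other 10. These are also ratios of RNA counts, not corrected for gene length, and protein was not measured.

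**Figure D3:**
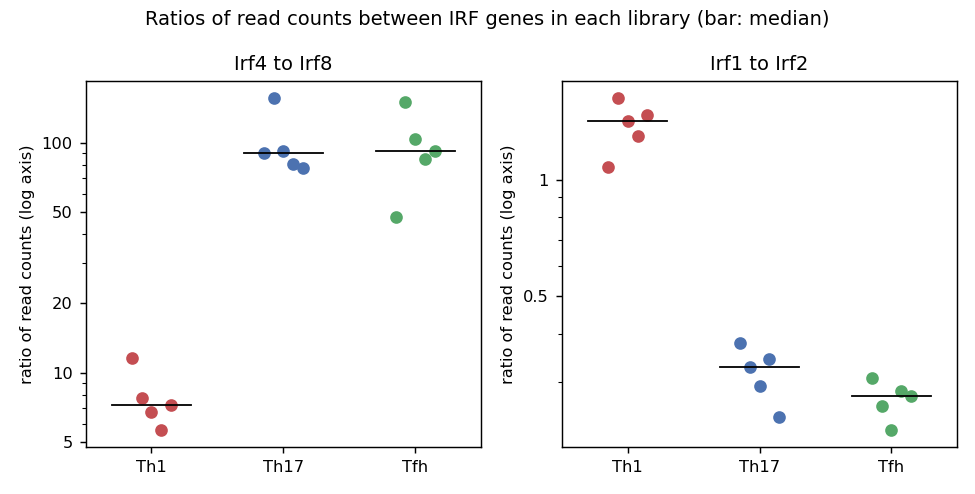
Ratio of read counts of Irf4 to Irf8 (left) and of Irf1 to Irf2 (right) in each library, on log axes, with the median of each condition as a bar. The Irf4 to Irf8 ratio is at most 11.6 in Th1 and at least 47.5 elsewhere. The Irf1 to Irf2 ratio is at least 1.08 in Th1 and at most 0.378 elsewhere.

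The genes of the sensing-activated factors did not move as a group. Irf7, which encodes the amplifier of type I interferon production and is itself an interferon-stimulated gene (chr7:141263183-141266499), was low, with a minimum in Th17. Irf7 stood at 7.43, 7.74, 13.4, 18.2 and 11.7 CPM in Th1 and at 2.46, 1.91, 2.89, 3.86 and 2.53 CPM in Th17. The Tfh libraries gave 9.47, 6.78, 7.92, 6.87 and 11.9 CPM. All Th17 libraries were below all others, and Th1 and Tfh overlapped. Irf7 was 3.13-fold higher in Tfh than in Th17 (log2 fold change 1.64 ± 0.30, edgeR adjusted p = 0.000869), a change larger in size than that of 95.9% of all genes tested. It was 4.27-fold lower in Th17 than in Th1 (log2 fold change -2.09 ± 0.30, edgeR adjusted p = 2.03e-05). In Tfh against Th1 the log2 difference of Irf7 was -0.45 ± 0.28 (edgeR adjusted p = 0.203).

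Irf5, which encodes a factor activated downstream of Toll-like receptors and MyD88 (chr6:29526130-29541869), fell in steps from Th1 through Th17 to Tfh. Irf5 stood at 19.5, 36.3, 58.6, 50.8 and 32.7 CPM in Th1. The Th17 libraries gave 11.4, 10.1, 12.7, 16.2 and 15.6 CPM, and the Tfh libraries 3.09, 7.49, 7.03, 8.26 and 5.83 CPM. No pair of conditions overlapped, although Th1 replicate 1 came close to the highest Th17 library. Irf5 was lower in Th17 than in Th1 (log2 fold change -1.59 ± 0.28, edgeR adjusted p = 0.000173) and 6.17-fold lower in Tfh than in Th1 (-2.63 ± 0.29, adjusted p = 6.24e-07). Tfh was below Th17 by -1.04 ± 0.29 on the log2 scale (edgeR adjusted p = 0.0173). That last call was lost with limma-voom (-1.03, adjusted p = 0.0809, the highest of a range from 0.000248). Irf5 shares 1043 bases with Tnpo3, a nuclear import receptor gene at a mean of 153 CPM over all libraries. Tnpo3 was lower in Tfh than in Th1 by -0.31 ± 0.10 on the log2 scale (edgeR adjusted p = 0.0182), and its other log2 differences were -0.05 and -0.26 (adjusted p = 0.742 and 0.0964).

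Irf3, which encodes the constitutive factor that TBK1 phosphorylates (chr7:44997648-45002848), was the only member that passed in none of the 3 comparisons. Irf3 stood at 15.1, 33.3, 49.7, 52.2 and 26.2 CPM in Th1 and at 29.5, 35.5, 39.9, 54.8 and 51.9 CPM in Th17. The Tfh libraries gave 80.4, 40.5, 48.8, 57.3 and 56.4 CPM. The ranges of all 3 conditions overlapped, and the highest library was Tfh replicate 1. The log2 difference of Tfh from Th1 was 0.67 ± 0.28 (edgeR adjusted p = 0.0527). It was 0.42 ± 0.28 in Tfh against Th17 and 0.26 ± 0.28 in Th17 against Th1 (edgeR adjusted p = 0.346 and 0.51).

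The spread of Irf3 within Th1 went with the GC content measure of the libraries. Irf3 transcripts had the highest GC content of the 8 genes, 56.7%, followed by Irf5 at 55.7% and Irf7 at 55.4%, and the lowest was 46.4% for Irf2. Th1 replicates 3 and 4, with rank correlations to GC of 0.69 and 0.70, had the 2 highest Th1 values of each of these 3 genes, and replicate 1, at -0.65, had the lowest. The pattern was not particular to these genes. Replicates 3 and 4 were also the 2 highest for Irf1, Irf8, Irf9 and Irf2 (102 and 108 CPM), and replicate 1 was also lowest for Irf1 and Irf8. Whether GC content underlies the spread was not tested. With the GC content of genes modelled in each library, an alternative chosen after seeing the data, the Tfh difference of Irf3 from Th1 was 0.73 ± 0.17 (edgeR adjusted p = 0.000939). That difference passed in 10 of 25 alternatives in all. They included DESeq2 (adjusted p = 0.0455), limma-voom (0.0444), library sizes without TMM factors (0.036) and no filter on low counts (0.0452). It also passed without Th1 replicate 3 (adjusted p = 0.0277), Th1 replicate 4 (0.0235) or Tfh replicate 2 (0.0402), with a range of 0.000939 to 0.147 over all 25. The GC-corrected log2 fold changes of Irf5 were -1.56, -2.56 and -1.0, and those of Irf7 were -2.09, -0.39 and 1.70, for Th17 against Th1, Tfh against Th1 and Tfh against Th17.

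Irf9, which encodes the DNA-binding subunit of ISGF3 (chr14:55603985-55610030), was lowest in Th17, with small differences. Irf9 stood at 71.8, 75.4, 95.5, 91.2 and 69.7 CPM in Th1, at 54.4, 64.1, 58.7, 64.5 and 64.2 CPM in Th17, and at 76.6, 82.6, 85.6, 95.2 and 81.4 CPM in Tfh. All Th17 libraries were below all others, as for Irf7, and Th1 and Tfh overlapped. Irf9 was higher in Tfh than in Th17 by 0.46 ± 0.13 on the log2 scale (edgeR adjusted p = 0.0154). It was lower in Th17 than in Th1 by -0.40 ± 0.13 (edgeR adjusted p = 0.0169). In Tfh against Th1 its log2 difference was 0.06 ± 0.12 (edgeR adjusted p = 0.714).

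Per kilobase of exon length, the scale on which levels of different genes can be set side by side, Irf4 was above the next member by 10.6-fold in Th1, 32.7-fold in Th17 and 21.8-fold in Tfh. With the length of the longest transcript in place of the summed exons these folds were 5.39, 18.0 and 12.0. Irf4 stood at 367 ± 17.9 CPM per kb in Th1, 489.8 ± 34.2 in Th17 and 506 ± 50.7 in Tfh. Its share of the summed CPM per kb of the 8 genes was 75.1 ± 4.07% in Th1, 89.6 ± 1.28% in Th17 and 87.0 ± 1.28% in Tfh. The lowest share was 70.4% in Th1, and no Th1 library reached the range of the other conditions.

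Below Irf4 the order of levels per kb changed between conditions. In Th1, Irf8 (34.5 ± 7.98 CPM per kb) and Irf1 (33.1 ± 4.29) came next and overlapped each other, with no overlap to those below. Irf9 (15), Irf5 (13.6), Irf2 (13.0), Irf3 (10.3) and Irf7 (3.09 CPM per kb) followed, each overlapping its neighbour. In Th17 and Tfh overlap was judged between neighbours in the order only. In Th17 the order below Irf4 was Irf2 (15 CPM per kb), Irf3 (12.3) and Irf9 (11.4), which overlapped in turn. Then came Irf1 (8.81), then Irf5 (4.54) and Irf8 (3.61), and last Irf7 (0.723). In Tfh it was Irf2 (23.2 CPM per kb), Irf3 (16.5) and Irf9 (15.6), which overlapped in turn, then Irf1 (11.5), then Irf8 (4.08), Irf7 (2.27) and Irf5 (2.18), each overlapping the next. Irf8 was thus second in Th1, and its share of the family's CPM per kb was 7.01 ± 1.39% there, against 0.666 ± 0.153% in Th17 and 0.722 ± 0.319% in Tfh. Irf1 held 6.75 ± 0.743% in Th1, 1.61 ± 0.145% in Th17 and 1.98 ± 0.195% in Tfh. By the longest transcript the shares of Irf8 were 11.7%, 1.23% and 1.31%, those of Irf1 10.4%, 2.73% and 3.30%, and those of Irf4 63.9%, 84.1% and 80.2%, in Th1, Th17 and Tfh. By that length 15 of the 24 places in the 3 orders were the same, and Irf4 was first in each.

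**Figure D4:**
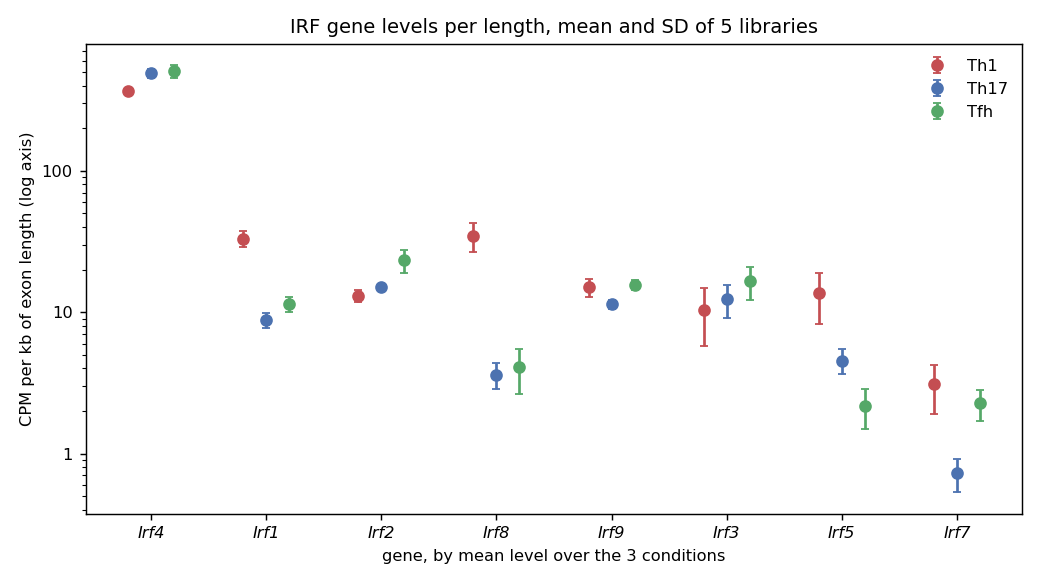
Level of each gene in CPM per kb of exon length on a log axis, as the mean and SD of 5 libraries per condition, with genes ordered by their mean over the 3 conditions. Irf4 lies at 367 to 506 CPM per kb, and every other member at 34.5 or below.

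The partners of the family were split in direction against Th1. Of 14 partner and co-regulator genes 11 were tested, and 3 rose and 3 fell in Th17 against Th1 (median log2 fold change 0.07, beside 0.03 over all genes). In Tfh against Th1, 3 rose and 3 fell (median -0.23, beside -0.01), and in Tfh against Th17, 2 rose and 1 fell (median -0.04, beside -0.01). These are 54.5%, 54.5% and 27.3% of the genes tested, where 36.9%, 49.3% and 16.8% of all genes passed. Batf3 passed the filter on low counts only through Th1. Among the other 10, 3 rose and 2 fell in Th17 against Th1, and 3 rose and 2 fell in Tfh against Th1. In Tfh against Th17, 2 rose and none fell, as the fall there was that of Batf3. The medians without Batf3 were 0.17, 0.02 and 0.04 in the same order. Batf, the main partner of IRF4 in T cells, stood at 237 ± 63.7 CPM in Th1, at 247 ± 38.3 in Th17 and at 319.7 ± 66.3 in Tfh and passed in no comparison (edgeR adjusted p = 0.0578 to 0.834). Batf3, which supports IRF8 in dendritic cells, was at 125 ± 40.1 CPM in Th1, against 1.30 ± 0.705 in Th17 and 0.103 ± 0.0719 in Tfh, where the 5 libraries held 4 counts. It was lower in Th17 than in Th1 by -6.54 ± 0.33 on the log2 scale (edgeR adjusted p = 2.06e-11). Spi1, the gene of PU.1, had no count in any library. Irf2bpl, a paralogue of the IRF2-binding proteins, rose from 29.2 ± 6.04 CPM in Th1 to 69.8 ± 9.16 in Th17 and 116 ± 13.9 in Tfh, and passed in all 3 comparisons (edgeR adjusted p = 0.00282 or lower). Stat2, whose protein joins IRF9 in ISGF3, was at 101 ± 13.1 CPM in Th1, against 52.4 ± 4.75 in Th17 and 51.2 ± 8.94 in Tfh. It was lower in both than in Th1 (edgeR adjusted p = 3.43e-05 and 1.44e-05).

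The pathways upstream of IRF3, IRF5 and IRF7 sense nucleic acids and bacterial products. Of 17 of their genes tested, 1 rose and 4 fell in Th17 against Th1 (median -0.31), 3 rose and 5 fell in Tfh against Th1 (median -0.25), and 1 rose and 2 fell in Tfh against Th17 (median 0.09). The shares called, 29.4%, 47.1% and 17.6%, were near or below those of all genes. Of the 17, 1 passed the filter on low counts only through Th1, and the numbers that rose and fell were the same without it. Ikbke, the kinase that acts beside TBK1, followed the order of Irf7, with 84.6 ± 25.5 CPM in Th1, against 25.6 ± 5.39 in Th17 and 49.3 ± 10.2 in Tfh. It was higher in Tfh than in Th17 by 0.94 ± 0.21 on the log2 scale (edgeR adjusted p = 0.00438). Sting1, the adaptor of cytosolic DNA sensing, fell from 566 ± 84.2 CPM in Th1 to 309 ± 41.9 in Th17 and 316 ± 37.0 in Tfh (edgeR adjusted p = 3.19e-05 and 2.99e-05). Tlr3 had no count, and Tlr4 and Tlr9 did not pass the filter on low counts.

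Among the ligands of the interferon receptors, Ifng alone passed the filter, and only through Th1. Ifng, on which the Th1 sort acted and whose allele is altered in these mice, was at 839.9 ± 136 CPM in Th1, against 0.510 ± 0.322 in Th17 and 0.341 ± 0.295 in Tfh. No count was seen in any library for Ifnb1, Ifna1, Ifna2, Ifna5, Ifna6 and Ifne. A count of 0 allows up to 0.58 CPM in the shallowest library and 0.127 CPM in the deepest (3 counts, counting error only).

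All 16 receptor and JAK-STAT genes were tested, and in Tfh against Th17 5 rose and 11 did not pass (median 0.30). That is 31.2% called, beside 16.8% of all genes. Ifngr2, the signalling chain of the interferon gamma receptor, ran against the members that were high in Th1. It was at 12.7 ± 2.87 CPM in Th1, against 84.0 ± 9.63 in Th17 and 135 ± 19.3 in Tfh, with log2 fold changes of 2.72 ± 0.17 and 3.41 ± 0.17 against Th1 (edgeR adjusted p = 2.53e-10 and 9.63e-12). Jak1, the kinase of the partner chain IFNGR1, was at 220.2 ± 17.7, 383 ± 42.1 and 543 ± 48.5 CPM in the same order. Against Th1 the list split, with 2 genes higher and 6 lower in Th17 (median -0.18) and 5 each way in Tfh (median -0.12). These are 50% and 62.5% of the list, beside 36.9% and 49.3% of all genes. Ifnlr1 passed the filter on low counts only through Th1, so that a difference was built into its being tested. Among the other 15, 2 were higher and 5 lower in Th17 than in Th1 (median -0.11). In Tfh against Th1, 5 were higher and 4 lower (median -0.11). Usp18, an interferon-stimulated inhibitor of the type I receptor, was at 20.3 ± 2.92 CPM in Th1, against 1.32 ± 1.09 in Th17 and 1.38 ± 1.40 in Tfh. Ifnlr1 had no count in Tfh and was at least 65.7-fold lower there than in Th1, with 3 counts over the 5 Tfh libraries taken as the floor.

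Of 27 known target genes of ISGF3, 11 were below the filter on low counts, with means of at most 1.18 CPM in any condition. Of the 16 tested, 11 fell and 5 did not pass in Th17 against Th1 (median -1.49), while in Tfh against Th1 3 rose and 10 fell (median -1.33). The shares called were 68.8% and 81.2%, beside 36.9% and 49.3% of all genes. Of these 16, 4 would have missed the filter with the libraries of 1 condition left out, so that a difference was built into their being tested. Among the other 12, 8 fell in Th17, and 2 rose and 8 fell in Tfh, with medians of -1.32 and -1.29. Oas3, an antiviral synthetase, was at 83.4 ± 32.9 CPM in Th1, against 2.49 ± 0.746 in Th17 and 0.636 ± 0.442 in Tfh. Trim30a, an interferon-induced tripartite motif gene, was at 161 ± 44.7, 42.5 ± 13.5 and 64.6 ± 19.3 CPM. In Tfh against Th17, where Irf7 and Irf9 were higher in Tfh, 2 target genes rose and 3 fell (median 0.22). That is 31.2% called, beside 16.8% of all genes. The 2 that rose were Slfn5 and Mx2 and the 3 that fell were Oas3, Ifih1 and Bst2. Mx2, with 22 counts over the 5 Tfh libraries and 2 over the 5 Th17 libraries, was among the 4 genes set aside above. Among the other 12, 1 rose and 3 fell in Tfh against Th17 (median 0.07). Slfn5, Mx2 and Bst2 lie outside the rule for named genes and were chosen after their values were seen.

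The list of interferon gamma and IRF1 target genes held 23 genes, of which 22 were tested. In Th17 against Th1, 1 rose and 13 fell (median -0.95), and in Tfh against Th1 1 rose and 16 fell (median -1.49). In Tfh against Th17 5 fell and 17 did not pass (median -0.14). The shares called were 63.6%, 77.3% and 22.7%, beside 36.9%, 49.3% and 16.8% of all genes. Of the 22, 3 would have missed the filter with the libraries of 1 condition left out. Among the other 19, 11 fell and none rose in Th17 against Th1, and 14 fell and none rose in Tfh against Th1. In Tfh against Th17, 5 of these 19 fell and none rose. Igtp, an immunity-related GTPase, was at 629 ± 56.0 CPM in Th1, against 119.7 ± 7.14 in Th17 and 63.3 ± 6.83 in Tfh. Gbp2, a guanylate-binding protein gene, was at 552 ± 94.3, 677 ± 104 and 238 ± 63.9 CPM, lower in Tfh than in Th17 by -1.51 ± 0.18 on the log2 scale (edgeR adjusted p = 1.24e-05). Gbp5 was at 304 ± 53.0, 161 ± 29.0 and 55.5 ± 10.9 CPM. These 3 genes fell in Tfh against Th17, while Irf1 stood at 35.0 ± 4.50 CPM in Th17 and 45.7 ± 5.58 in Tfh. The gene that rose was Ciita, the class II transactivator, with no count in Th1, so at least 14.7-fold higher in Th17 and 36.1-fold higher in Tfh with the same floor. Ciita was 1 of the 3 genes set aside above.

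**Figure D5:**
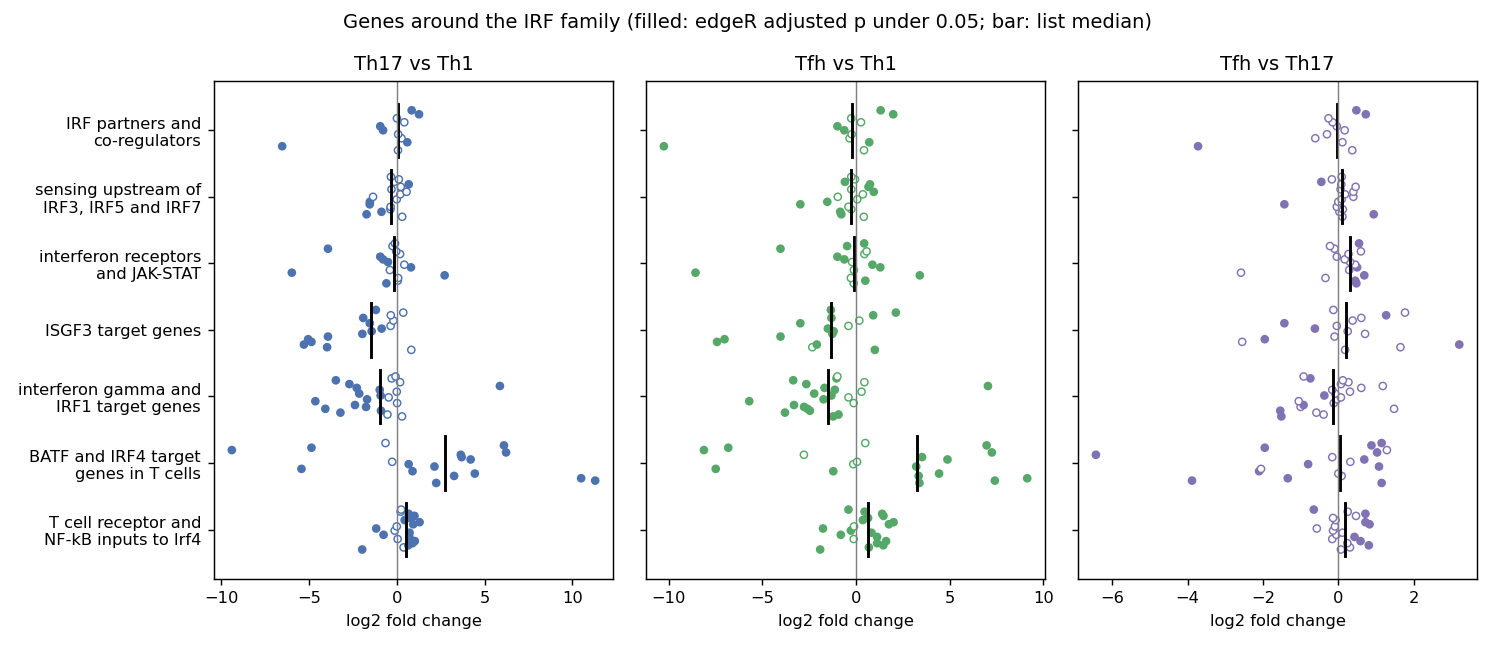
Log2 fold changes of the tested genes of 7 lists around the family in the 3 comparisons, with each list's median as a black bar and genes past the edgeR threshold filled. The medians of the ISGF3 list lie at -1.49, -1.33 and 0.22, and those of the BATF and IRF4 target list at 2.75, 3.29 and 0.05, from the left to the right panel.

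Genes known as joint targets of BATF and IRF4 in T cells were mostly higher in Th17 and Tfh than in Th1. Of 18 tested, 13 rose and 3 fell in Th17 against Th1 (median 2.75), and 10 rose and 4 fell in Tfh against Th1 (median 3.29). In Tfh against Th17, where Irf4 and Batf did not pass, 6 rose and 6 fell (median 0.05). The shares called were 88.9%, 77.8% and 66.7%, beside 36.9%, 49.3% and 16.8% of all genes. Of the 18, 3 would have missed the filter with the libraries of 1 condition left out. Among the other 15, 12 rose and 1 fell in Th17 against Th1, and 10 rose and 2 fell in Tfh against Th1. In Tfh against Th17, 6 of these 15 rose and 5 fell (median 0.09). Maf, the gene of c-Maf, was at 10.7 ± 2.75 CPM in Th1, against 798 ± 194 in Th17 and 1629.8 ± 350.0 in Tfh. Il17a, on which the sort of the Tfh cells acted and whose allele is altered, was at 0.0595 ± 0.0829, 225 ± 24.4 and 15.1 ± 6.18 CPM. Prdm1, the gene of Blimp-1, was at 26.0 ± 2.50, 0.574 ± 0.394 and 0.115 ± 0.215 CPM. Gzmb, a cytotoxic granule protease gene, was at 438 ± 16.0 CPM in Th1, against 0.620 ± 0.478 in Th17 and 1.63 ± 2.09 in Tfh. Several listed genes also define the Th17, Tfh or Th1 lineages, so the list's direction is not independent of the sorts.

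The T cell receptor and NF-kB genes that feed into Irf4 were mostly higher where Irf4 was higher. All 20 were tested. Against Th1, 11 were higher and 3 lower in Th17 (median 0.54), and 13 were higher and 5 lower in Tfh (median 0.67). In Tfh against Th17, 6 were higher and 1 lower (median 0.18). The shares called were 70%, 90% and 35%, beside 36.9%, 49.3% and 16.8% of all genes. Malt1, the paracaspase that links the receptor to NF-kB, was at 296 ± 94.5 CPM in Th1, against 726 ± 149.9 in Th17 and 1197 ± 199.5 in Tfh. Nfatc1 was at 173 ± 53.7, 351 ± 68.2 and 529 ± 65.3 CPM. Rel, the NF-kB subunit that acts on the Irf4 promoter, was at 29.7 ± 4.96, 17.5 ± 2.61 and 16.8 ± 6.03 CPM, lower in Th17 and in Tfh than in Th1 (edgeR adjusted p = 0.0148 and 0.00743). Replacing fitted folds by their bounds for the genes without a count in a condition left every list median as printed.

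Genes with the pattern most like each member were ranked by Pearson's r of log2 CPM over the 15 libraries, which mainly follows the differences between the 3 conditions and is given as a description. Among 9203 candidate genes, Irf8 was followed most closely by the cytotoxic granule gene Nkg7 (r = 0.99), Gpr160 (0.99) and the IL-15 receptor gene Il15ra (0.99), and Irf1 by Heg1, Jarid2 and Tbx21, the gene of T-bet (0.98 each). Nkg7 was at 431 ± 181 CPM in Th1, against 4.12 ± 1.6 in Th17 and 6.55 ± 3.52 in Tfh. Irf5 was followed by Phgdh, the first enzyme of serine synthesis, Tmbim1 and Mcrip2 (0.98 each). Irf4 was followed by Slamf6 (0.97), Atp6v0e and Eif2ak1 (0.96 each). Slamf6, a co-receptor gene, was at 6.83 ± 1.11 CPM in Th1, against 47.9 ± 20.4 in Th17 and 68.6 ± 35.6 in Tfh. Irf2 was followed by Cpt1a (0.95), Slc22a15 and Thada (0.94 each), and Irf3 by Supt5 (0.97), Shkbp1 and Ccdc12 (0.95 each). Irf7 was followed by Mex3a (0.94), Synj2 and Zfp827 (0.92 each), and Irf9 by Gimap3 (0.96), Rasgrp4 and Laptm5 (0.94 each). By Spearman's rho, 3 of these 24 genes were chosen again, and by deviations from the condition means, 1.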

How the data were processed

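Messenger RNA was sequenced in 15 libraries made from 100 ng of RNA each with a Lexogen SENSE kit. The deposited files hold raw read counts per Entrez gene ID. Per the submitters' processing notes, the authors aligned reads with STAR 2.7.2b to mm10 and obtained the counts with featureCounts 1.6.4. Neither annotation nor strand setting nor the handling of multi-mapped reads is known from the sources used here. Names came from RefSeq (GRCm38.p6) for 25275 IDs and from GENCODE for 17, which carried 98.2% of counts, and 1887 had none. No 2 libraries of the same condition agreed within counting noise, and libraries of different conditions were not compared in this way.

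Genes were tested with edgeR 4.0.16 in R 4.3.3 (filterByExpr, which kept 12591 genes and removed 5472 others with a count, TMM, robust quasi-likelihood fit of all 15 libraries without covariates, Benjamini-Hochberg over all genes tested, called at 0.05). Levels are CPM on TMM-scaled sizes, as mean ± SD of 5 libraries, and each log2 fold change has a standard error derived from its F statistic. Exon lengths, for CPM per kb, and transcript GC content came from GENCODE vM21 (exon lengths as the union of a gene's exons). The script was tested on simulated data. Alternatives used DESeq2 1.42.0, limma-voom (limma 3.58.1), other scalings, filters and groups, a replicate block, a GC correction, and each library left out. The single-library files held the same counts as the series table.

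Members and gene lists were chosen with earlier results of these data known. Named were all 8 members, their 3 most alike genes each, and from each of the 8 lists up to 3 genes per comparison and direction with the largest fold change among those that passed, had no overlap of libraries and reached a mean of 10 CPM. Not every gene the rule took is described, and some genes are not reported here. Batf, Spi1, Tnpo3, Ifnlr1, Ciita, and the ligand and sensor genes given at 0 or below the filter, lie outside the rule and were chosen after their values were seen. Motifs were searched in RefSeq promoter windows as letters only.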

Additional observations from a re-analysis of the deposited data

Results flagged for a closer look

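Each of the 24 sets of 5 libraries (8 genes in 3 conditions) was checked for a library far from the other 4 with Dixon's ratio against its 95% critical value of 0.71, which chance exceeds in about 1 in 20 sets. Irf1 in Th1 was the only set past it, with 1 library below the rest, replicate 1 at 102 CPM, where the other 4 stood at 133 to 144 CPM. Both calls of Irf1 against Th1 were also made without that library.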

How the results depend on the processing

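Over 25 alternatives for each member and comparison, 580 values kept their direction and their side of the threshold, or stayed uncalled. The other 20 were Irf1 in Tfh against Th17 (9 gained), Irf3 in Tfh against Th1 (10 gained) and Irf5 in Tfh against Th17 (1 lost), given above. The sign of 2 uncalled differences turned: Irf8 in Tfh against Th17 (-0.04), and Irf9 in Tfh against Th1 (-0.01 at the lowest). Leaving out each library in turn gave 1613 to 2393 genes called in Tfh against Th17, beside 2113 with all. The GC correction gave 3385, and with the replicate block 3948. The genes most like each member changed most: 3 of 24 were shared with Spearman's rho and 1 with deviations from condition means. With the longest transcript as length, 15 of 24 places in the order per kb were kept. Whether replicate numbers pair the samples was not settled by the data. The deviations of same-numbered libraries from their condition means correlated at -0.1 to 0.57, over 0.1 in 7 of 15 pairs. Libraries of different numbers correlated at -0.52 to 0.61, and 3 libraries correlated best with their own number. With the replicate number as a block, 2941, 6923 and 5487 genes passed in Tfh against Th17, Tfh against Th1 and Th17 against Th1, beside 2113, 6206 and 4642 without it, and Irf1 (0.38, adjusted p = 0.0449) and Irf3 (0.74, adjusted p = 0.0226) passed in the first and second. Counting error limits Irf7 most, at 1308 counts over the 15 libraries. The 2 GC settings were chosen after seeing the data.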
